A study of Mus musculus with 12 samples.

Results

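The genes described here are the small heat-shock proteins of skeletal muscle, the co-chaperone Bag3 and the stress-induced Hsp70 genes, measured by RNA-seq in the tibialis anterior, a fast-twitch muscle of the lower hindlimb. They were chosen by gene symbol: Cryab, Hspb1, Hspb2, Hspb3, Hspb6, Hspb7, Hspb8, Bag3, Hspa1a and Hspa1b, 10 of the 23923 genes in the deposited tables. All 10 passed the filter on low values and were among the 12695 genes tested. The study asked how loss of the muscle methyltransferase SMYD1 alters skeletal muscle, and it sequenced 1 library from each of 12 mice at 6 weeks of age. The paper states that after its first histology only males were used, and it reports the sequencing after that. The 6 control mice were Myf6 cre/+; Smyd1 flox/+ and the 6 conditional-knockout (CKO) mice were Myf6 cre/+; Smyd1 flox/-, all on a mixed C57BL6/J;129S1/SvImJ background, so that both groups carried the Cre allele and, per the study's breeding scheme, the Rosa26 YFP reporter. Cre was expressed from the Myf6 gene, which is active in differentiating and mature myofibers. Control fibers thus kept a single intact Smyd1 copy, and the CKO mice lacked 1 copy in every cell of the body. No litter, cage or pairing of the 12 mice was given.

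Small heat-shock proteins are ATP-independent chaperones that share a conserved alpha-crystallin domain and hold unfolding proteins in a soluble state. In striated muscle they bind desmin, filamin C and other Z-disc and filament proteins that are strained by contraction. BAG3 joins HSPB8 and an Hsp70 into a complex with the ubiquitin ligase CHIP, and this complex passes damaged filamin to autophagosomes, a route called chaperone-assisted selective autophagy. Inherited mutations of CRYAB and BAG3 cause myofibrillar myopathy.

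The values were FPKM, in which sequenced fragments are divided by transcript length and by library size, so that levels could be compared between genes as well as between mice. The fast-fiber genes that mark this muscle were abundant in every library, with a summed level of 23960 to 39950 FPKM over 7 genes. Of these 7, 1 was higher and 1 lower in CKOs (unadjusted limma P below 0.05), beside 18.1% and 1.76% of all genes tested. Slow-fiber genes summed to 14.1 to 46.0 FPKM in controls and to 20.2 to 271 FPKM in CKOs, with the highest values in CKO 6 (271), CKO 1 (126) and CKO 3 (75.0), and 5 of the 6 were higher at an unadjusted limma P below 0.05, as were 18.1% of all genes tested. Of the markers of other cells, 2 of 5 fibroblast, 2 of 4 Schwann cell and 1 of 2 adipocyte genes tested were higher, and 0 of 4 endothelial, 0 of 4 macrophage and 0 of 3 blood genes were called in limma in either direction. Relative sequencing depth ranged from 0.984 to 1.77 times that of control 1. Smyd1 was at 37.4 ± 5.64 FPKM in controls and 34.1 ± 4.37 in CKOs (mean ± SD, n = 6 each; exact permutation P = 0.290, limma adjusted P = 0.545). Its log2 fold change was -0.13 as deposited and -0.32 after the rescaling described next, where it passed unadjusted but not adjusted (limma adjusted P = 0.0797). The tables give 1 value for the whole gene, so neither value checks the deletion. The FPKM of all genes tested were shifted upward in CKOs, with a median log2 fold change (CKO minus control) of 0.18 that became 0.0079 when each library was rescaled by the median ratio of its genes to their geometric means. On that scale 1 of the 7 fast-fiber genes was higher and 4 were lower. Of the 6 slow-fiber genes 4 were higher and 1 was lower. In the same fit 1 of the 5 fibroblast genes was higher. None of the 4 Schwann cell and 2 adipocyte genes was called in limma there. Of all genes tested, 6.62% were higher and 7.44% lower. Values on the rescaled data are called scaled below.

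Hspb8 was higher in the CKO and Hspb6, Hspa1a and Hspa1b were lower, while the other 6 genes did not pass the test. These calls rest on unadjusted P-values. At an unadjusted P below 0.05 in limma, 1 of the 10 genes was higher, where 18.1% of all genes tested were higher, and 3 were lower, where 1.76% of all genes were lower. After median-ratio scaling the counts were again 1 higher and 3 lower, beside 6.62% and 7.44% of all genes. None of the 10 genes passed an adjusted P of 0.05 (Benjamini-Hochberg, over all genes tested) in limma, as 2.02% of all genes did as higher and 0.268% as lower. The smallest limma adjusted P was 0.0844, for Hspb8. After scaling, 0.764% of all genes were higher and 0.709% lower past adjustment, and again none of the 10 was among them (smallest limma adjusted P = 0.0808, for Hspb6). The log2 fold change was positive for 7 of the 10 genes and for 77.9% of all genes as deposited, and for 6 of the 10 and 51.2% of all genes after scaling. The median log2 fold change of the 10 genes was 0.19 as deposited and 0.0060 after scaling. For no gene were all CKO values outside the range of the controls, a separation seen upward in 2.23% and downward in 0.189% of the genes tested.

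**Figure D1:**
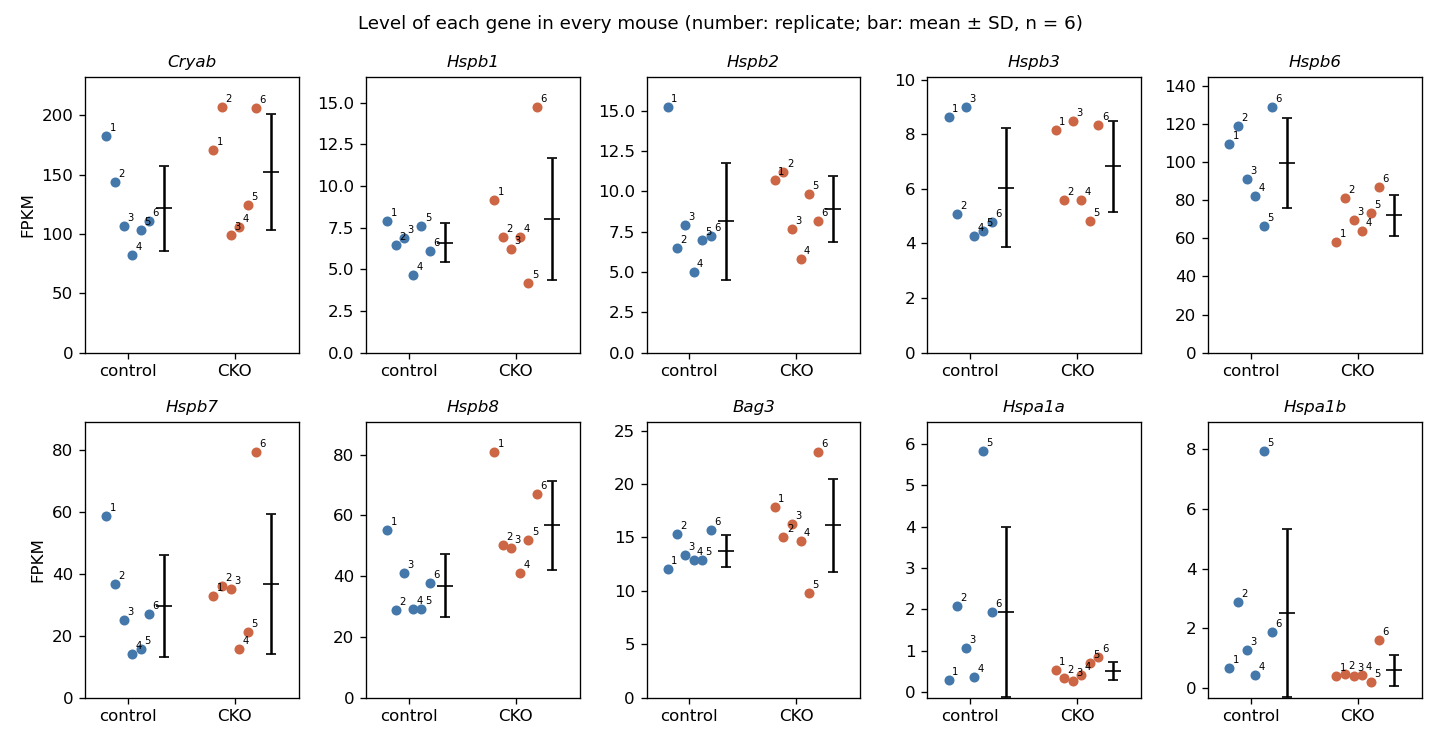
FPKM of each of the 10 genes in every mouse, with controls in blue, CKOs in orange, the replicate number beside each point and bars for mean ± SD (n = 6). Hspb8 was at 41.1 to 80.9 FPKM in CKOs against 28.8 to 55.1 in controls, and Hspb6 at 57.9 to 86.9 against 66.4 to 129.3.

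The 10 genes spanned a wide range of levels. Cryab was the highest in controls at 121.7 FPKM on average, above 99.3% of the genes tested, followed by Hspb6 (99.6), Hspb8 (36.8), Hspb7 (29.5), Bag3 (13.7), Hspb2 (8.14), Hspb1 (6.60), Hspb3 (6.04), Hspa1b (2.52) and Hspa1a (1.93). The CKO means followed this same order. The places of Hspa1b and Hspa1a are uncertain, since these genes are near-identical copies and reads that mapped to several places were discarded. Between neighbours in the order, Hspb6 exceeded Hspb8 and Hspb7 exceeded Bag3 in 6 of 6 controls (exact sign-flip test, two-sided P = 0.0312 each, the smallest that 6 mice allow). Adjusted over the 9 neighbouring pairs this exact P is 0.141, and so few mice leave little room to pass that adjustment. The other 7 neighbouring pairs each crossed in at least 1 control and had an exact P above 0.05.

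Cryab encodes alpha-B-crystallin, the chief small heat-shock protein of muscle and a binder of desmin and titin. Its levels in controls ran from 82.4 to 182.9 FPKM with a median of 108.8, and in CKOs from 99.4 to 207.3 with a median of 147.5. The groups overlapped widely, although CKO 2 and CKO 6, both above 200 FPKM, exceeded every control. The log2 fold change was 0.31 ± 0.22 (SE; exact permutation P = 0.249, limma adjusted P = 0.438), and 0.12 after scaling.

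Hspb2, a partner that binds the myotonic dystrophy kinase, is transcribed from the strand opposite to that of Cryab. The gene lies at chr9:50751078-50752354 on the minus strand and Cryab at chr9:50751325-50756636 on the plus strand (GRCm38, GENCODE), so that the annotated loci overlap by 1030 bases. They share 252 exonic bases, which make up 17.0% of the exonic length of Cryab and 30.2% of that of Hspb2. Whether the FPKM used strand is not given in the sources used here, and reads from the shared stretch cannot otherwise be assigned to either gene. Hspb2 was at 4.98 to 15.2 FPKM in controls (median 7.10) and 5.78 to 11.2 in CKOs (median 8.99). Control 1 was the highest of all 12 mice, and the other 5 controls lay at 7.92 FPKM or below. On the log2 scale CKOs exceeded controls by 0.18 ± 0.23 (SE; exact permutation P = 0.507, limma adjusted P = 0.671), a value that was -0.0023 after scaling. Across the 12 mice, after the group means were removed, Cryab and Hspb2 varied together (Pearson r = 0.713, permutation P = 0.0111, adjusted over 3 pairs 0.0167; Spearman rho = 0.664, permutation P = 0.0262, adjusted 0.0392). On the scaled values r was 0.645 (permutation P = 0.0268, adjusted 0.0402) and rho was 0.580 (permutation P = 0.0711, adjusted 0.107), so that the rank correlation no longer passed. Without CKO 2 and CKO 6, the mice farthest from the median of Cryab, r was 0.790. Within the groups r was 0.834 in controls (exact permutation P = 0.0444) and 0.626 in CKOs (exact permutation P = 0.163).

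Hspb3 (chr13:113662896-113663676, minus strand), found mainly in muscle as a partner of HSPB2, was at 4.26 to 9.01 FPKM in controls (median 4.92) and 4.82 to 8.47 in CKOs (median 6.88). The values fell in a lower and an upper range within each group: controls 1 and 3 and CKOs 1, 3 and 6 lay at 8.17 FPKM or above, and the other 7 mice at 5.59 or below. The difference of 0.21 ± 0.21 on the log2 scale (SE; exact permutation P = 0.344, limma adjusted P = 0.599) was close to the median of all genes, and it was 0.024 after scaling.

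Hspb1 (chr5:135887919-135889563, plus strand), the classical Hsp27 that protects actin and filamin, was at 4.63 to 7.89 FPKM in controls (median 6.69) and 4.17 to 14.8 in CKOs (median 6.93). The spread of the CKOs came from both ends, since CKO 5 was the lowest and CKO 6 the highest of the 12 mice. The fitted log2 fold change was 0.19 ± 0.23 (SE; exact permutation P = 0.515, limma adjusted P = 0.666), with 0.0054 after scaling and -0.0051 without CKO 6.

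Hspb7 (chr4:141420779-141425311, plus strand), the cardiovascular small heat-shock protein that binds filamin C, was the most variable of the 7 small heat-shock proteins, from 14.1 to 58.6 FPKM in controls (median 26.1) and 15.7 to 79.5 in CKOs (median 33.9). Control 1 and CKO 6 were the highest of their groups and controls 4 and 5 and CKO 4 the lowest. Between the groups the log2 fold change was 0.30 ± 0.37 (SE; exact permutation P = 0.511, limma adjusted P = 0.677). It was 0.11 after scaling, 0.036 without CKO 6 and 0.53 without control 1.

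Hspb6 and Hspb8 were the 2 small heat-shock proteins that passed the unadjusted threshold, in opposite directions. The bases before their start sites are shown because the genes diverged, with Hspb1 as a member that did not, and they were searched for the paired letters of a heat-shock element, GAANNTTC and TTCNNGAA. Each of these motifs reads the same on both strands. Sequences are the 250 bases before each annotated start, 5′ to 3′ on the strand of the gene, from RefSeq (GRCm38.p6), and capitals mark a match. They are Hspb8 at chr5:116422865-116423114 (minus strand), the first Hspb6 start at chr7:30552290-30552539 (plus strand), the second Hspb6 start at chr7:30553051-30553300 (plus strand) and Hspb1 at chr5:135887669-135887918 (plus strand).
Hspb8: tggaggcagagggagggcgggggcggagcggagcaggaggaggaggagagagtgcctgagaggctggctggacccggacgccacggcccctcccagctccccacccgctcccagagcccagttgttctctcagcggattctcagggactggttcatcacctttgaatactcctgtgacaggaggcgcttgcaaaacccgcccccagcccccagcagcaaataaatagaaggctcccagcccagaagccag
Hspb6, first start: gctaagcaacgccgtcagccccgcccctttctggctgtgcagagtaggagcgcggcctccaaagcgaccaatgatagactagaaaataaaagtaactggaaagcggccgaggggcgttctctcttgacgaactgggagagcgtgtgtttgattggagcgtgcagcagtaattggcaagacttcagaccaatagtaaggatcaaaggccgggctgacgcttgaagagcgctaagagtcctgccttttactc
Hspb6, second start: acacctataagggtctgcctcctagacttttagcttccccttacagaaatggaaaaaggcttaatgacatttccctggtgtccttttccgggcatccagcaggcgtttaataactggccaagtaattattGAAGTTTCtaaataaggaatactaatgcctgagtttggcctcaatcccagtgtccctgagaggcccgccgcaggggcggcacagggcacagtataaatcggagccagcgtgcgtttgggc
Hspb1: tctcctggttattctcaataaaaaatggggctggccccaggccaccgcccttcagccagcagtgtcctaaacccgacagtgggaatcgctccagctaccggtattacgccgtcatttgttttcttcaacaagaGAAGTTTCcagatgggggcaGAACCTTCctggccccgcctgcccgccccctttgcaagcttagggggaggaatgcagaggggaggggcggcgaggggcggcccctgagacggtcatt

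The Hspb8 window and the first Hspb6 window held no match. The second Hspb6 window held GAAGTTTC at 120 to 113 bases before the start, and the Hspb1 window held GAAGTTTC at 117 to 110 and GAACCTTC at 97 to 90. Of the 8 members with an entry, 5 had a match, the others being Hspb3, Hspa1a and Hspa1b, while Hspb7 and Bag3 had none. Of 32851 promoters of this length, 12.8% held either motif. Cryab and Hspb2 had no entry.

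Hspb8 (chr5:116408491-116422864, minus strand), the small heat-shock protein that works with BAG3, was at 28.8 to 55.1 FPKM in controls (median 33.3) and 41.1 to 80.9 in CKOs (median 51.0). All 6 CKOs lay above the control median, and CKO 1 and CKO 6 lay above the highest control. Control 1 was the highest control, and the next, control 3, was level with the lowest CKO, CKO 4, at 41.1 FPKM. Mean levels were 36.8 ± 10.4 and 56.7 ± 14.6 FPKM (SD, n = 6), a fitted 1.55-fold difference. The log2 fold change was 0.63 ± 0.18 (SE; exact permutation P = 0.0238, two-sided; limma adjusted P = 0.0844). After scaling it was 0.44 (limma adjusted P = 0.168). CKO 1 and CKO 6 also had the most slow-fiber RNA. CKO 3, the next in slow-fiber RNA, had 49.25 FPKM of Hspb8, below the CKO median. Control 4, the control with the most slow-fiber RNA, had 29.04 FPKM, below the control median. Since CKO 1 and CKO 6 had the most Hspb8 of all mice, a fit without them must give a smaller difference. With CKO 1, CKO 3 and CKO 6 left out, a choice made after the values were seen, only 3 CKOs remained. The log2 fold change was then 0.41 (limma adjusted P = 0.622) and Hspb8 no longer passed the unadjusted threshold. In that fit 0 of the 10 genes were higher in limma, where 7% of all genes were higher, and 1, Hspa1b, was lower, where 1.3% were lower. Without control 1, in which fibroblast genes summed to 680 FPKM against 177 to 224 in the other controls, it passed adjustment (limma adjusted P = 0.0137). The part of fiber type and of other cells in the Hspb8 difference was not tested. In whole muscle a change in the number of cells of a type and a change in RNA per cell cannot be told apart.

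Hspb6, the Hsp20 that is phosphorylated by cyclic nucleotide-dependent kinases and binds BAG3 and 14-3-3 proteins (chr7:30552178-30555443, plus strand), was at 66.4 to 129.3 FPKM in controls (median 100.4) and 57.9 to 86.9 in CKOs (median 71.5). All 6 CKOs lay below the control median, and controls 1, 2, 3 and 6 lay above every CKO, with controls 4 and 5 inside the CKO range. Mean levels were 99.6 ± 23.8 and 72.1 ± 10.8 FPKM (SD, n = 6). Their log2 fold change was -0.44 ± 0.16 (SE; exact permutation P = 0.0346, two-sided; limma adjusted P = 0.144). After scaling it was -0.63 (limma adjusted P = 0.0808). With CKO 1, CKO 3 and CKO 6 left out it was -0.42 (limma adjusted P = 0.611) and did not pass the unadjusted threshold. HSPB6 is also abundant in smooth muscle, whose marker genes summed to 48.1 to 85.0 FPKM in controls and 51.3 to 71.5 in CKOs. Of these markers 0 of 5 were called in limma, beside 18.1% of all genes higher and 1.76% lower. The part of smooth muscle in the Hspb6 difference was not tested.

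**Figure D2:**
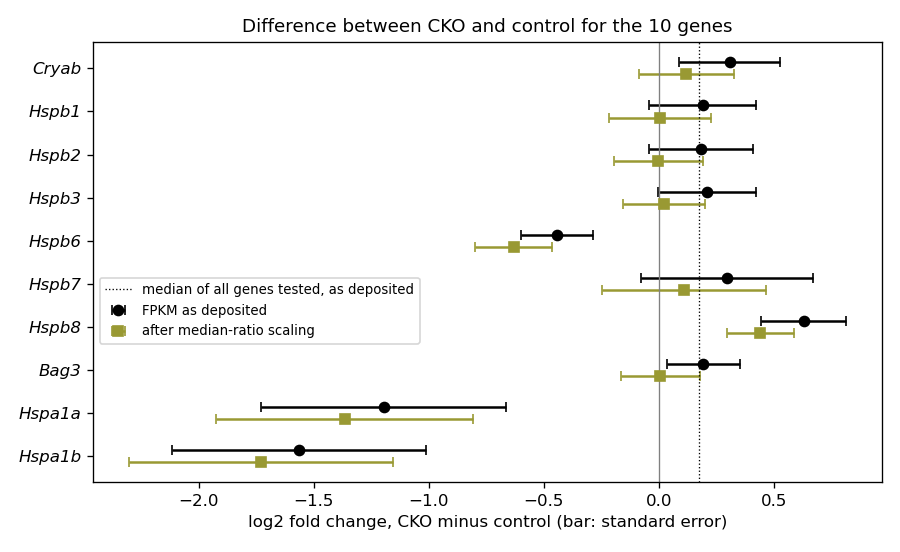
Log2 fold change of CKO minus control for the 10 genes (x axis; bars, standard error), from FPKM as deposited (black circles) and after median-ratio scaling (olive squares), with the median of all genes as a dotted line. Hspb8 (0.63) lay to the right of that line, Hspb6 (-0.44), Hspa1a (-1.20) and Hspa1b (-1.56) lay to the left, and the other 6 genes lay between 0.18 and 0.31.

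The same values were also expressed as shares of the RNA of the 7 small heat-shock proteins, with no test of the shares. The summed level of the 7 genes was 221.5 to 438 FPKM in controls and 244.9 to 470.8 in CKOs. Cryab took 34.4 to 44.3% of this sum in controls and 36.0 to 52.0% in CKOs. The share of Hspb6 was 25.0 to 40.02% in controls (median 33.1%) and 15.6 to 26.0% in CKOs (median 22.8%). Hspb8 made up 8.32 to 14.3% in controls (median 12.5%) and 12.6 to 21.9% in CKOs (median 17.3%). The shares of all 7 genes overlapped between the groups.

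**Figure D3:**
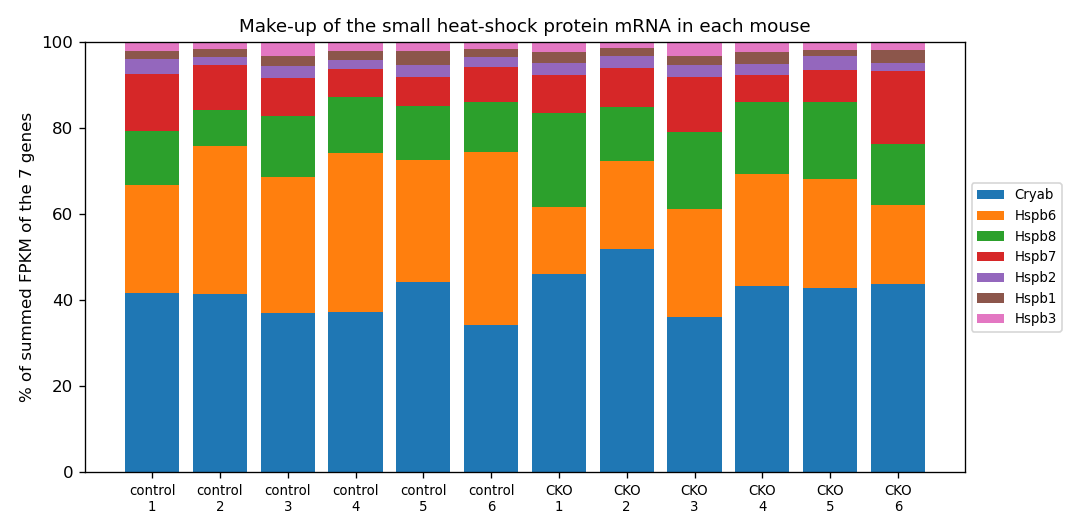
Stacked shares of the 7 small heat-shock proteins in their summed FPKM (y axis, %), 1 bar per mouse. The Hspb6 band was 15.6 to 26.0% in the 6 CKOs and 25.0 to 40.02% in the 6 controls, while the Hspb8 band was 12.6 to 21.9% and 8.32 to 14.3%.

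The ratio of Hspb8 to Hspb6 within a mouse does not depend on the scaling of its library. It was 0.503, 0.242, 0.451, 0.354, 0.438 and 0.291 in controls 1 to 6, and 1.40, 0.619, 0.707, 0.644, 0.706 and 0.773 in CKOs 1 to 6. The groups did not overlap, the lowest CKO being CKO 2 and the highest control being control 1. This was the only 1 of the 21 ratios between the 7 genes without overlap, and it was singled out after the values were seen, so no test is given for it. The ratio joins the gene of the 7 called higher with the gene called lower. How often ratios of other genes separate the groups was not computed.

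**Figure D4:**
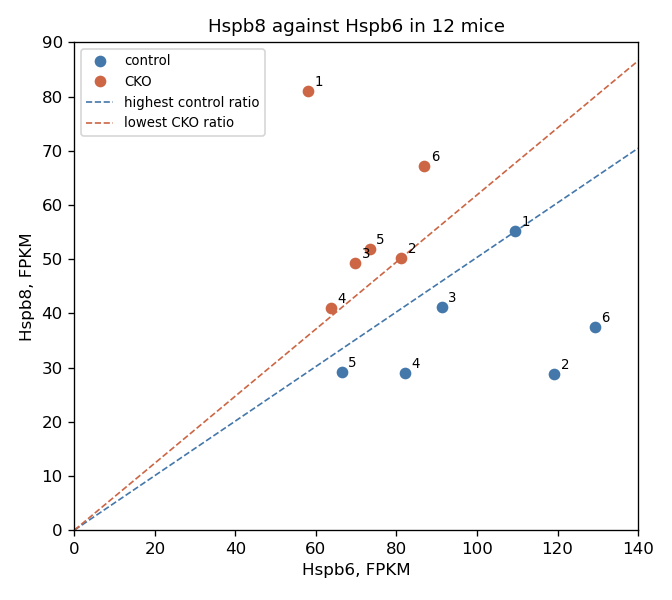
Hspb8 (y axis, FPKM) against Hspb6 (x axis, FPKM) in the 12 mice, with replicate numbers; dashed lines mark the highest control ratio (0.503) and the lowest CKO ratio (0.619). All 6 CKOs lie on or above the upper line and all 6 controls on or below the lower line.

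Bag3 (chr7:128523616-128546981, plus strand) encodes the scaffold that links HSPB8 to Hsp70. It was at 12.02 to 15.7 FPKM in controls (median 13.1) and 9.79 to 23.0 in CKOs (median 15.7). As deposited the controls were tightly grouped, whereas CKO 5 was the lowest and CKO 6 the highest of the 12 mice. On the scaled values the controls spread more widely, from 10.8 to 18.0, and the CKOs ran from 9.02 to 20.9. The log2 fold change of Bag3 was 0.19 ± 0.16 (SE; exact permutation P = 0.310, limma adjusted P = 0.502), and 0.0067 after scaling. Without CKO 5 it was 0.33 (limma adjusted P = 0.166) and passed the unadjusted threshold, and with CKO 1, CKO 3 and CKO 6 left out it was -0.076 (limma adjusted P = 0.902). These 3 had the most Bag3 of the CKOs, so the fall was fixed by the choice, and only 3 CKOs remained. Within the CKOs, the 3 mice with the most slow-fiber RNA were the 3 with the most Bag3. This did not hold among controls. Control 4, the highest there in slow-fiber RNA, had 12.93 FPKM of Bag3, and control 1, the next, had 12.02, the lowest control. The part of fiber type in these levels was not tested. Bag3 and Hspb8 showed no detectable correlation over the 12 mice with group means removed (r = 0.224, permutation P = 0.516, adjusted over 3 pairs 0.516; rho = 0.238, permutation P = 0.479, adjusted 0.479). Without CKO 5 and CKO 6 r was 0.0686, and it was -0.389 within controls (exact permutation P = 0.449) and 0.508 within CKOs (exact permutation P = 0.310).

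The genes whose log2 levels were most like those of Bag3 over the 12 libraries, among 7959 genes with a mean of at least 1 FPKM, were Arid5b (Pearson r = 0.918), Rnf44 (r = 0.885) and Tnni1, which encodes slow skeletal troponin I (r = 0.836). Those most like Cryab were Crip2 (r = 0.912), Timm10 (r = 0.909) and Pgd (r = 0.906). Group means were not removed here, and Tnni1 reached a mean of 1 FPKM through the CKOs alone (0.345 FPKM in controls and 4.58 in CKOs). These values are a description over libraries that share their scaling, and they carry no test.

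Hspa1a and Hspa1b, the inducible cytosolic Hsp70 genes, are near-identical copies on chromosome 17, at chr17:34969190-34972156 and chr17:34956436-34959238 (GRCm38, minus strand), 9951 bases apart. Of all 50-base windows of their transcripts, 58.8% of Hspa1a and 62.3% of Hspa1b also occur in the other. The authors discarded reads that mapped to several places, so both levels rest on the remaining sequence and are uncertain. The 250 bases before the 2 starts are shown because the genes varied together. They lie at chr17:34972157-34972406 for Hspa1a and chr17:34959239-34959488 for Hspa1b (RefSeq, GRCm38.p6, minus strand), and capitals mark the heat-shock element letters.
Hspa1a: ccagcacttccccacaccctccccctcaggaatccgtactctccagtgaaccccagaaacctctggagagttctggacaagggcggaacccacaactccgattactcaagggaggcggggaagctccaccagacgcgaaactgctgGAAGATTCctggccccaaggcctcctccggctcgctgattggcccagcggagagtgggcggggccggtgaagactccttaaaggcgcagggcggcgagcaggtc
Hspa1b: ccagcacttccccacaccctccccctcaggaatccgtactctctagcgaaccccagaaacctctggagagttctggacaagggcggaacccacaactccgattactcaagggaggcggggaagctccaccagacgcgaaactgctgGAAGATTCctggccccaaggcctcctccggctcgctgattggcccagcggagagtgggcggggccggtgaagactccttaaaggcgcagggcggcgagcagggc

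The 2 windows were identical at 247 of 250 bases, and both held GAAGATTC at 104 to 97 bases before the start.

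Hspa1a was at 0.298 to 5.82 FPKM in controls (median 1.503) and 0.280 to 0.841 in CKOs (median 0.465). Hspa1b was at 0.455 to 7.95 FPKM in controls (median 1.58) and 0.201 to 1.62 in CKOs (median 0.426). For both genes the controls varied most: control 5 was the highest of the 12 mice and controls 2, 6 and 3 came next among controls, while controls 1 and 4, and for Hspa1b also control 3, lay inside the CKO range. Below the lowest control lay 1 CKO for Hspa1a, CKO 3, and 4 CKOs for Hspa1b. The log2 fold change of Hspa1a was -1.20 ± 0.53 (SE; limma adjusted P = 0.227), which passed unadjusted in limma but not in the exact permutation test (P = 0.0909). That of Hspa1b was -1.56 ± 0.55 (SE; exact permutation P = 0.0303, limma adjusted P = 0.142). After scaling the values were -1.37 and -1.73, and with a pseudocount of 1 in place of 0.1 they were -0.72 and -0.90.

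The 2 copies varied together over the 12 mice with group means removed (r = 0.852, permutation P = 0.00289, adjusted over 3 pairs 0.00867; rho = 0.769, permutation P = 0.0192, adjusted 0.0392). On the scaled values r was 0.867 (permutation P = 0.00231, adjusted 0.00693), while rho of 0.776 did not pass adjustment (permutation P = 0.0273, adjusted 0.0818). Without controls 5 and 2 r was 0.713, and it was 0.976 within controls (exact permutation P = 0.00417) and 0.353 within CKOs (exact permutation P = 0.554). Immediate early genes, which respond within minutes to stress and to handling of tissue, varied as well. Of 7 such genes 6 were tested. At an unadjusted limma P below 0.05, 2 were lower in CKOs, beside 1.76% of all genes. After scaling 2 were again lower, beside 7.44% of all genes. The summed level of the 7 was 10.7 to 71.0 FPKM in controls and 10.7 to 28.6 in CKOs. Control 2 (71.0), control 6 (29.8) and control 5 (29.2) were the highest. Controls 5 and 2 also had the most Hspa1a and Hspa1b of the 12 mice, so a fit without them must give a smaller difference. With controls 2 and 5 left out, a choice made after the values were seen, the log2 fold change was -0.48 for Hspa1a (limma adjusted P = 0.676) and -0.82 for Hspa1b (limma adjusted P = 0.477). Neither passed the unadjusted threshold there, and of the 10 genes 1 was higher and 1, Hspb6, was lower, where 10.4% of all genes were higher and 2.05% lower. The part of tissue handling in these levels was not tested.

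**Figure D5:**
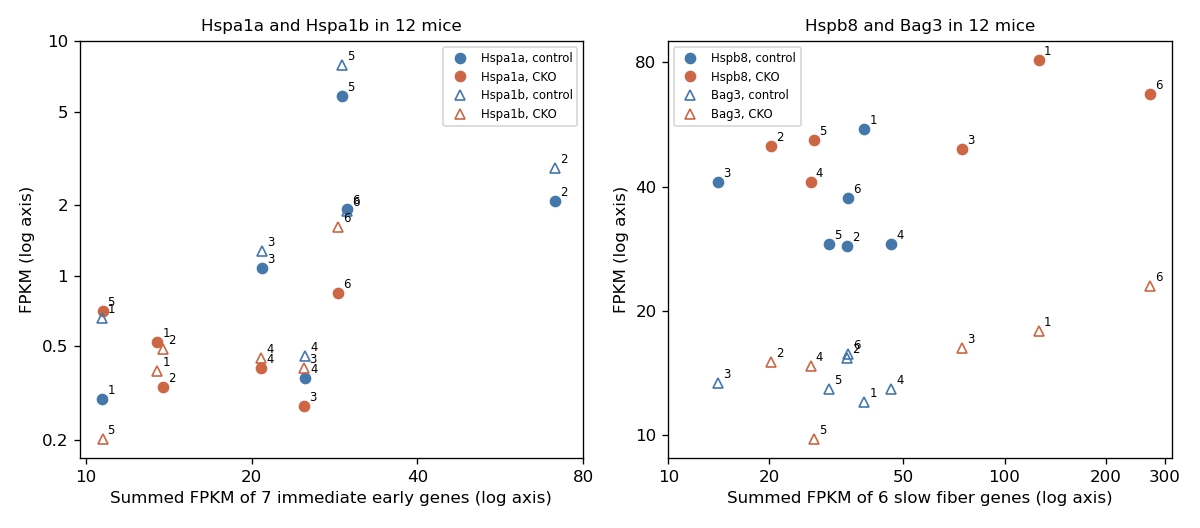
Left, Hspa1a and Hspa1b (FPKM, log axis) against the summed FPKM of 7 immediate early genes (log axis). Right, Hspb8 and Bag3 (FPKM, log axis) against the summed FPKM of 6 slow-fiber genes (log axis). Each point is a mouse, numbered by replicate. Control 5 had the most Hspa1a and Hspa1b at 5.82 and 7.95 FPKM, and CKO 6 had the most slow-fiber RNA (271 FPKM) and the most Bag3 (23.0 FPKM).

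The other genes of the pathway were taken from lists of 80 genes, of which 76 could be tested. Of these, 11 were higher and 1 was lower at an unadjusted limma P below 0.05, and 0 passed adjustment, where 18.1% of all genes were higher and 1.76% lower. Their median log2 fold change was 0.11, against 0.18 for all genes, and after scaling 1 was higher and 7 were lower, with a median of -0.075, where 6.62% of all genes were higher and 7.44% lower.

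Among 13 partners of BAG3 in selective autophagy, 3 were higher and 0 lower as deposited, and 0 were higher and 3 lower after scaling. The shares of all genes were 18.1% and 1.76% as deposited, and 6.62% and 7.44% after scaling. The 3 with the smallest P were Dnajb6, a J protein mutated in limb-girdle muscular dystrophy (1.86 ± 0.252 to 2.31 ± 0.219 FPKM, mean ± SD in controls and CKOs, n = 6), Synpo2l, a Z-disc relative of synaptopodin-2 (9.60 ± 0.812 to 11.6 ± 1.86), and Vps16, a subunit of the vacuolar tethering complex (1.35 ± 0.282 to 1.77 ± 0.333). Their log2 fold changes were 0.30, 0.26 and 0.36 (limma adjusted P = 0.191, 0.198 and 0.234), and none passed the unadjusted threshold on the scaled values. Of the 3 that were lower after scaling 1 passed adjustment, Sqstm1, the receptor p62, which was named after its values were seen. It was at 70.1 ± 14.5 FPKM in controls and 56.8 ± 8.35 in CKOs (log2 fold change -0.29; limma adjusted P = 0.263), and on the scaled values the difference was larger (-0.48; limma adjusted P = 0.0416).

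Among 16 autophagy receptors, Atg8 proteins and lysosomal genes, 4 were higher and 1 was lower as deposited, and 0 were higher and 1 was lower after scaling. Of all genes, 18.1% were higher and 1.76% lower as deposited, and 6.62% and 7.44% after scaling. Map1lc3a, an Atg8 protein of the autophagosome membrane, was at 18.0 ± 2.15 FPKM in controls and 24.8 ± 5.03 in CKOs (log2 fold change 0.44 ± 0.13 SE; limma adjusted P = 0.0789). Lamp2, a lysosomal membrane protein, was at 16.8 ± 2.87 and 21.1 ± 1.49 FPKM (log2 fold change 0.34; limma adjusted P = 0.111). After scaling Map1lc3a was at 0.26 and Lamp2 at 0.16 (limma adjusted P = 0.357 and 0.375), and neither passed unadjusted. Optn, the autophagy receptor optineurin, went the other way at 24.2 ± 5.70 and 18.0 ± 3.52 FPKM (log2 fold change -0.42; limma adjusted P = 0.162), and on the scaled values it passed adjustment (-0.61; limma adjusted P = 0.0241).

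The lists of chaperones that work beside the 10 genes are read against 18.1% of all genes higher and 1.76% lower as deposited, and 6.62% and 7.44% after scaling. Of 11 other Hsp70 and Hsp110 genes, 1 was higher as deposited, and 0 were higher and 1 was lower after scaling in limma. The higher gene was Hspa1l (1.90 ± 0.536 and 2.69 ± 0.819 FPKM; limma adjusted P = 0.231), which did not pass unadjusted after scaling, while Hspa2 and Hsph1 came next (limma adjusted P = 0.272 and 0.287). Of 6 other Bag proteins and exchange factors and of 8 cytosolic J proteins, 0 were called in limma in either direction as deposited and 1 in each list was lower after scaling. Bag6, Bag1 and Bag5 had the smallest P of the former (limma adjusted P = 0.396, 0.506 and 0.527), and Dnajc5, Dnajb1 and Dnajc7 of the latter (limma adjusted P = 0.359, 0.404 and 0.437). Dnajb1, the J partner induced with Hspa1a, was at 1.75 ± 1.35 and 0.994 ± 0.402 FPKM, with the wider spread again in controls. Of 14 heat-shock factors and other heat-induced chaperones, 1 was higher as deposited and 0 were called after scaling in limma. The higher gene was the transcription factor Hsf2 (6.43 ± 0.919 and 8.35 ± 1.35 FPKM; log2 fold change 0.37, and 0.18 after scaling; limma adjusted P = 0.129 and 0.453), and Hsbp1 and Stip1 came next (limma adjusted P = 0.274 and 0.335). The level of Hsf1, the main heat-shock factor, was 1.91 ± 0.223 and 1.91 ± 0.260 FPKM.

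Of 9 filament and Z-disc clients or myofibrillar myopathy genes, 8 were tested and 2 were higher as deposited and 1 after scaling. Higher among all genes were 18.1% as deposited and 6.62% after scaling. Des, which encodes desmin and is bound by alpha-B-crystallin, was at 224.6 ± 18.4 FPKM in controls and 319.2 ± 58.7 in CKOs (log2 fold change 0.49 ± 0.13 SE; limma adjusted P = 0.0634), and 0.30 after scaling (limma adjusted P = 0.241), where it still passed unadjusted. Actn2, the Z-disc crosslinker, was at 192 ± 40.2 and 262.8 ± 66.7 FPKM (log2 fold change 0.43; limma adjusted P = 0.226), and 0.25 after scaling, where it did not pass unadjusted. Vim, which encodes vimentin, came next (limma adjusted P = 0.497). Ttn was listed at 0 in 8 libraries and at 639.5 to 871 FPKM in the other 4, so it was not tested. The remaining small heat-shock proteins Cryaa, Hspb9 and Odf1, known from the lens and the testis, were listed at 0 in 11, 10 and 11 of the 12 libraries and did not exceed 0.118 FPKM.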

How the data were processed

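Total RNA of 12 tibialis anterior muscles was depleted of ribosomal RNA and sequenced by the authors, who removed adapters, mapped with bowtie2 and TopHat, dropped multi-mapping reads and computed the deposited FPKM with Cufflinks. The submitters' processing notes name TopHat2 2.0.10, Cufflinks 2.1.1 and mm9; the annotation is not given in the sources used here. The read counts behind the authors' DESeq test were not analysed here, so depth in reads is unknown and no counting interval is given. Relative depth came from steps between FPKM below 0.15.

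Of 23950 rows per table, 27 that held a date in place of a symbol were dropped. Genes with at least 0.1 FPKM in 6 or more libraries were tested as log2(FPKM + 0.1) with limma 3.58.1 (R 4.3.3, intensity trend, 6 controls against 6 CKOs), adjusted by Benjamini-Hochberg. Fold changes on this scale are understated for low genes. No 2 libraries were identical. Correlations were computed on log2 values, with permutation within groups.

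The 10 genes, the pathway and marker lists and the pairs were chosen with earlier results of these data known. The text names the 10 genes, the 3 genes of each pathway list with the smallest P, list genes past the adjusted threshold, and the 3 genes most alike to Bag3 and to Cryab. Positions came from GENCODE M21 (GRCm38) by symbol, since the tables hold none, and promoters from RefSeq. The script was tested on simulated data.

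Alternatives were no filter or a filter at 1 FPKM, a pseudocount of 1, scaling by median ratios or quantiles, a replicate block, no trend, sample weights, an exact permutation test and leaving out each mouse.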

Additional observations from a re-analysis of the deposited data

How the results depend on the processing

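Depth in reads is unknown, so the counting error of low genes such as Hspa1a and Hspa1b cannot be given. Hspb8 stayed higher and Hspb6, Hspa1a and Hspa1b stayed lower in log2 fold change in every setting run that tested them, but Hspa1a lost its unadjusted call (-1.20) with no filter (limma adjusted P = 0.322), without the trend (limma adjusted P = 0.255) and in the exact permutation test (P = 0.0909). The filter at 1 FPKM removed both Hsp70 genes and left 1 lower gene, beside 2.03% of all genes. Median-ratio scaling turned Hspb2 to -0.0023. Sample weights gave 2 higher genes, beside 29.2% of all genes, as Hspb3 (0.43) passed unadjusted too, and 1 past adjustment, beside 11%. Leaving out CKO 1, CKO 3 and CKO 6, chosen after seeing the data, left 3 CKOs and gave 0 higher genes in limma, where 7% of all genes were, and 1 lower. Hspb8 (0.41), Hspb6 (-0.42) and Hspa1a (-1.25) then lost their calls and Bag3 (-0.076), Hspb1 (-0.15), Hspb3 (-0.11) and Hspb7 (-0.19) changed sign. CKO 1 and CKO 6 had the most Hspb8, and all 3 the most Bag3 of the CKOs, so both values had to fall. Leaving out controls 2 and 5, also chosen after seeing the data, left 1 lower gene, with Hspa1a at -0.48 and Hspa1b at -0.82. These controls had the most Hspa1a and Hspa1b, so both differences had to shrink. The Cryab and Hspb2 correlation was 0.626 and that of Hspa1a and Hspa1b 0.353 within CKOs, where neither passed an exact permutation test, and that of Bag3 and Hspb8 was -0.389 within controls. The cause of these changes was not tested.

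With each mouse left out in turn, 1 to 2 genes were higher and 2 to 3 lower, beside 13.7 to 27% and 1.54 to 2.52% of all genes, and 0 to 1 was higher past adjustment in limma (Hspb8, without control 1, beside 8.4%). Hspa1a ran from -1.55 to -0.77 and lost its call in 8 of the 12 fits, those without controls 2, 3, 5 or 6 or CKOs 1, 2, 3 or 4. Hspb2 ran from 0.062 to 0.38 and passed without control 1, Bag3 from 0.082 to 0.33 and passed without CKO 5, and Hspb1 from -0.0051 to 0.36, turning without CKO 6. The other 6 genes kept their direction and their side of the threshold.

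Whether equal replicate numbers pair the mice could not be settled from so few pairs. Deviations correlated at -0.0861 to 0.164 within a number (mean 0.0404) and at -0.160 to 0.186 between numbers (mean -0.0088). Of the 6 pairs within a number 2 exceeded 0.1, as did 1 of the 30 between numbers. Of 6 controls, 2 resembled the CKO of their own number best. With the number as a block, 2 genes were higher, beside 19.2% of all genes, as Cryab (0.31) passed unadjusted as well, and 1 passed adjustment (Hspb8; limma adjusted P = 0.0128, beside 2.14%). The block with median-ratio scaling gave 1 higher and 1 lower gene past adjustment (Hspb8 and Hspb6), beside 0.717% and 0.654%, and Hspb2 at -0.0023.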
